A study of Drosophila melanogaster with 3 samples.

Results

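The regions described here are the reproducible Insv peaks that lie at the starts of noncoding RNA genes and away from protein-coding promoters in fly embryos. They were taken from the authors' list of peaks that passed a test of reproducibility between replicates (irreproducible discovery rate, IDR). A peak was kept when its summit lay within 500 bp of an annotated start of a noncoding gene and more than 500 bp from every protein-coding start. Genes for tRNAs and transposable elements were left out. The rule kept 103 of 4753 IDR peaks (2.17%), at 92 separate loci. They were set beside 3004 peaks within 500 bp of a protein-coding start and 1634 peaks more than 500 bp from every start. Chromatin immunoprecipitation with sequencing (ChIP-seq) was done with an anti-GFP antibody on whole embryos of mixed sex, collected over the first 24 h, from a transgenic Drosophila melanogaster line that stably expresses Insv with GFP at its C-terminal end. There were 3 biological replicates of this single group, with no second genotype, age or treatment. Whole embryos mix all cell types and stages, so a peak cannot be assigned to a tissue, and a fusion protein in 1 line stands for Insv. The lists hold no read numbers, which leaves the depth unknown and the 3 replicates as the measure of precision. Each replicate's list holds 30000 regions of peaks and background. Regions with a q-value below 0.05 numbered 8416, 13953 and 12194 in replicates 1, 2 and 3. The signal percentiles below are places within these lists, so a low or middle percentile can stand for background.

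Insensitive (Insv) is a nuclear protein of the nervous system that binds DNA through a BEN domain and represses targets of the Notch pathway. It recognises a palindrome, CCAATTGG, and a related degenerate site, and its relatives of the Elba complex, which act at chromatin boundaries, recognise CCAATAAG. Noncoding genes differ in how they are transcribed. Genes for the small nuclear RNAs (snRNAs) of the splicing machinery have short promoters of their own, read by RNA polymerase II or III. Long noncoding RNAs (lncRNAs) are transcribed like mRNAs. Most microRNAs (miRNAs) and small nucleolar RNAs (snoRNAs) are cut out of longer transcripts, so that their annotated start is an end of the processed RNA and need not be a promoter.

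The sequences below were read from the RefSeq genome sequence of build dm6. The first set holds the members with an Insv or Elba sequence that lie in introns, together with the nearest Insv site to the peak at iab8. Each is 101 bases of the plus strand with the site in capitals. The windows are centred on the summit for asRNA:PS4 (chr3R:16719746-16719846), mir-9374 (chr2L:21237994-21238094) and lncRNA:CR46110 (chr3R:29774944-29775044), and on the site for lncRNA:iab8 (chr3R:16899205-16899305).
asRNA:PS4: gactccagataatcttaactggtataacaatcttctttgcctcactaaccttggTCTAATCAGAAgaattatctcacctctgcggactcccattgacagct
lncRNA:iab8: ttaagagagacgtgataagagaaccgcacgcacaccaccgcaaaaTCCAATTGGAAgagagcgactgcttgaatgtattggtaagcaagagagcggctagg
mir-9374: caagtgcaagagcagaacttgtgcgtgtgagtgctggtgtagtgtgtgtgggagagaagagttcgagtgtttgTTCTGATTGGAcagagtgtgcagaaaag
lncRNA:CR46110: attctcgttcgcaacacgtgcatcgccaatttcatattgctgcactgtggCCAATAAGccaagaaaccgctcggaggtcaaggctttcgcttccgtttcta

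The second set shows 4 snRNA genes with a peak, each from 75 bases before the start to 25 bases into the gene, on the strand of the gene. Capitals mark AATTCCCAA, a part of the proximal sequence element that fly snRNA promoters share. The windows are chr3L:3593748-3593847 (plus strand) for U7, chr3R:23859606-23859705 (minus strand) for U1:95Ca, chr3R:7474972-7475071 (minus strand) for 7SKa and chr3R:24557140-24557239 (plus strand) for U6:96Ac, which lacks these exact letters.
snRNA:U7: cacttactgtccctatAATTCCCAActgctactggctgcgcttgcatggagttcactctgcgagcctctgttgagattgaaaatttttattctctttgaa
snRNA:U1:95Ca: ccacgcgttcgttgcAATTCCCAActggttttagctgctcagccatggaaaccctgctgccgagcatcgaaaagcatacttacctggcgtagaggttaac
snRNA:7SKa: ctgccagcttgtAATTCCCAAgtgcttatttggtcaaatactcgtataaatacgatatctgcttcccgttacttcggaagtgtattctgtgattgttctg
snRNA:U6:96Ac: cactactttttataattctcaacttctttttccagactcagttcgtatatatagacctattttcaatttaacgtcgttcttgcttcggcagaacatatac

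The third set holds the mature miRNAs of the locus with the most member peaks, mir-279 (chr3R:29215651-29215672, plus strand) and mir-996 (chr3R:29217244-29217265, plus strand). Capitals mark the seed, bases 2 to 8, which pairs with target mRNAs. Both miRNAs have the seed GACUAGA.
miR-279: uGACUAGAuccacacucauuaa
miR-996: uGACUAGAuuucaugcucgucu

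Most of the peaks lay at lncRNA genes, but the snRNAs were the class with the largest share of genes with a peak by the rule. By the class of the nearest start, 70 of the 103 peaks belonged to lncRNAs, 10 to snRNAs, 8 to antisense RNAs, 7 to miRNAs, 5 to snoRNAs, 2 to other small RNAs and 1 to a snoRNA host gene. Of 3448 noncoding genes, 98 (2.84%, Wilson 95% interval 2.34 to 3.45%) had such a peak within 500 bp of a start. Among snRNA genes, 10 of 32 had one (31.2%, 18.0 to 48.6%), against 1 of 7 snoRNA host genes (14.3%, 2.57 to 51.3%), 3 of 61 other small RNA genes (4.92%, 1.69 to 13.5%), 65 of 1944 lncRNA genes (3.34%), 7 of 274 snoRNA genes (2.55%), 5 of 260 miRNA genes (1.92%) and 7 of 503 antisense RNA genes (1.39%). None of 268 pseudogenes and none of 99 rRNA genes had one, with upper limits of 1.41% and 3.74% by the same interval. For protein-coding genes, counted with any summit within 500 bp, the share was 3456 of 13945 (24.8%). Another 107 noncoding genes had only peaks that also lay within 500 bp of a protein-coding start, which the rule leaves out. They included 46 lncRNA genes, 36 antisense RNA genes, 5 pseudogenes, 2 snoRNA host genes and 1 snRNA gene. The class shares and their order therefore hold only for peaks by the rule. The intervals cover counting error only.

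**Figure D1:**
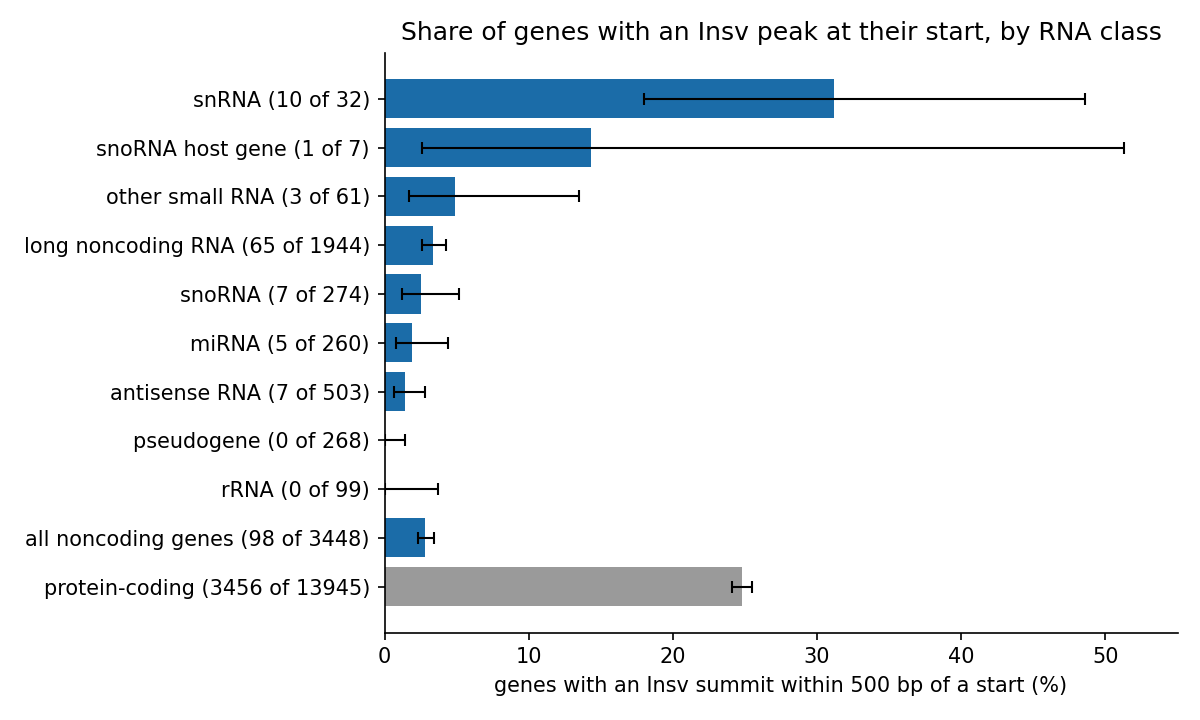
Bars give the percentage of genes with a member peak within 500 bp of a start for each noncoding RNA class, with protein-coding genes in grey. Black lines are Wilson 95% intervals. Peaks also within 500 bp of a protein-coding start are not counted for noncoding genes, and 107 of these genes had only such peaks. The snRNA genes stand at 31.2% and all noncoding genes at 2.84%, beside 24.8% of protein-coding genes, for which any summit within 500 bp was counted.

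Among snRNA, snoRNA, miRNA, antisense RNA and lncRNA genes, the snRNAs had the largest share in each replicate's own 4753 strongest regions. The order of the other 4 classes differed between replicates. For snoRNA host genes, which held 2, 1 and 1 such regions in replicates 1, 2 and 3, and for the remaining classes the share of genes was not computed by replicate. The share of snRNA genes with a region by the same rule was 18.8%, 25% and 31.2% in replicates 1, 2 and 3, with a mean of 25% ± 6.25 (SD, n = 3). All noncoding genes gave 2.71% ± 0.177 and lncRNA genes 3.03% ± 0.0514 (SD, n = 3). In every replicate the snRNA share was thus above that of noncoding genes as a whole by more than the replicate spread. No test was made, since the classes differ in number and genes are not replicates. Restricting the count to genes whose start lies over 500 bp from protein-coding starts left 9 of 29 snRNA genes (31.0%) and 93 of 2889 noncoding genes (3.22%).

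The snRNA genes with a peak belonged to 7 families. They were U1:21D and U1:95Ca, which pair with the start of introns, U2:34ABb, which pairs with the branch site, U4:38AB and U4:39B, U5:63BC, and U6:96Ab and U6:96Ac, which form the catalytic core, together with U7, which acts in histone mRNA processing, and 7SKa, which holds back the elongation kinase P-TEFb. Counted by family, 2 of 5 U1 genes, 1 of 6 U2, 2 of 3 U4, 1 of 7 U5, 2 of 3 U6, 1 of 2 7SK and the U7 gene were bound. The genes of the minor spliceosome, U11, U12, U4atac and U6atac, were not, and neither was LU. One further gene, U2:34ABa, had a peak that also lay within 500 bp of a protein-coding start and was therefore no member.

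The strongest snRNA peak lay at U7, in an intron of the kinase gene Eip63E and on its strand, with its summit at 3L 3593722, 101 bp before the U7 start. It ranked 931 of 4753 by the authors' signal score. The strongest region near the U7 start stood at percentiles of 96.0, 96.1 and 97.2 in the lists of replicates 1, 2 and 3. At 7SKa (rank 1458) the percentiles were 96.2, 94.2 and 93.8, with the summit 182 bp inside the gene. The U1:95Ca peak (rank 2089) had its summit 3 bp inside the gene and percentiles of 92.2, 91.5 and 92.9. These 3 genes therefore had similar values in all replicates.

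Other snRNA genes varied more, with replicate 1 the lowest. For U4:39B (rank 4747) the percentiles were 64.5, 80.0 and 87.6, and for U1:21D (rank 4326) 63.8, 82.5 and 91.2. In replicate 1 their regions ranked 10649 and 10869 by signal, past the number of regions with a q-value below 0.05 (8416). U2:34ABb (rank 1741) had 83.2, 93.5 and 95.7. Of the 10 snRNA peaks, 8 had their lowest percentile in replicate 1 and 9 their highest in replicate 3, against 43 of 99 members with their lowest in replicate 1. Replicate 1 also had the fewest regions with a q-value below 0.05. The part of this in the snRNA values was not tested.

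Signal was also listed at some of the snRNA genes outside the rule. The 10 bound genes had median percentiles of 90.2, 92.5 and 93.5 in replicates 1, 2 and 3. Of the other 22 genes, 8, 13 and 13 had any listed region within 500 bp, with medians of 59.3, 44.4 and 59.7. The highest of these was at U2:34ABa in each replicate, at 73.9, 87.8 and 92.7, so the ranges of the 2 groups overlapped. Every bound gene except U1:21D and U4:39B lay above it in all 3 replicates. The bound genes were picked by an IDR list made from these same replicates. Their higher percentiles are therefore built into that choice and are not a separate result.

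**Figure D2:**
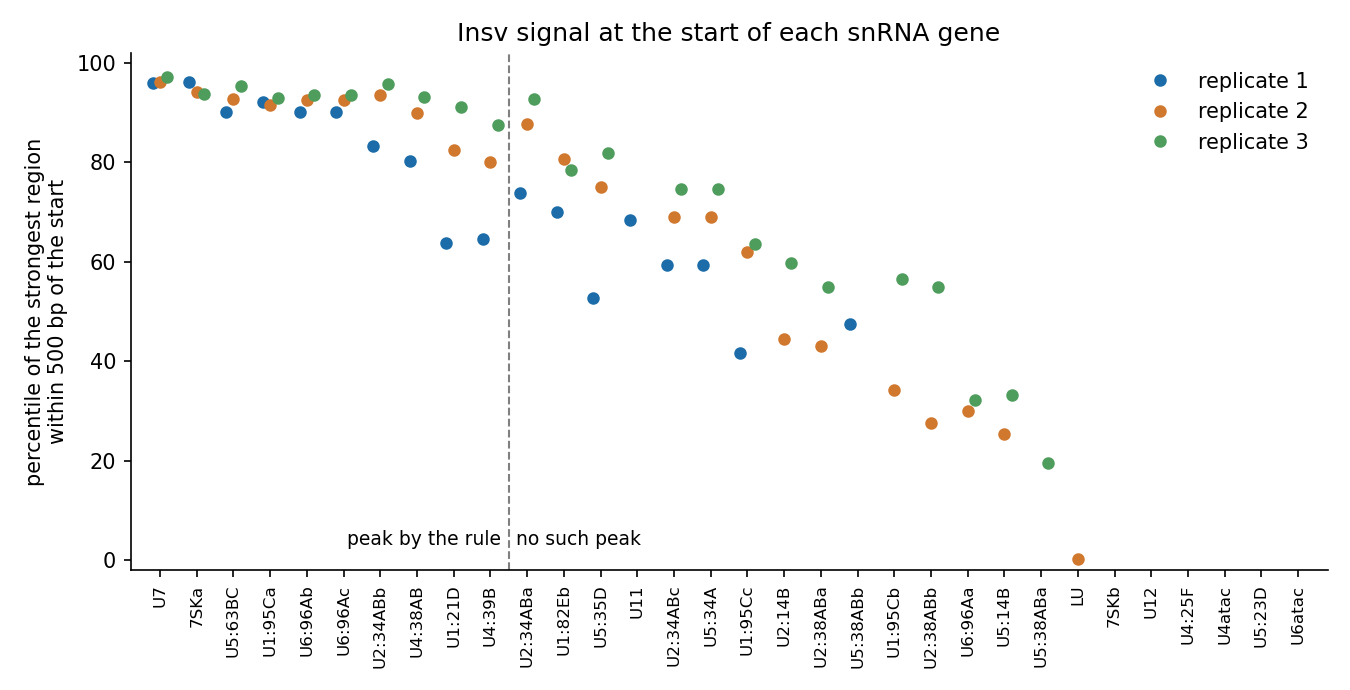
Each point is the percentile of the strongest Insv region within 500 bp of the start of an snRNA gene (vertical axis) in 1 replicate, and genes with no listed region have no point. The 10 genes left of the dashed line have a peak by the rule, from U7 at 96.0 to 97.2 down to U4:39B at 64.5 to 87.6. The IDR list behind the rule was made from the same replicates, so higher values on the left are built in. U2:34ABa shares its peak with a protein-coding start.

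The summits lay mostly within the transcribed part or just beside it, since 8 of 10 were at or downstream of the snRNA start, against 30 of 70 for lncRNAs. AATTCCCAA was found on the sense strand in the 100 bases before 22 of 32 snRNA genes (68.8%), with its first base between 63 and 57 bases upstream. It preceded 11 of 4033 other noncoding starts (0.273%) and 16 of 19253 protein-coding starts (0.0831%). Among bound snRNA genes 8 of 10 had it, and among the other snRNA genes 14 of 22, so it did not set the bound genes apart. Several snRNA genes exist in identical copies: 5 of the 10 bound genes, and 3 of the 22 others, have more than 1 exact copy of their sequence on the chromosome arms. How reads that match several places were handled is not stated, so signal inside U1:21D, U1:95Ca, U2:34ABb, U6:96Ab and U6:96Ac cannot be told apart from that of their copies. The single peak between U6:96Ab and U6:96Ac (rank 1962) counts for both genes.

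Among the miRNA loci, the primary transcript of mir-279 and mir-996 carried 3 member peaks within 1 broad region. The 2 miRNAs act in sense organ and olfactory neuron development. Their lncRNA precursor, lncRNA:CR31044, runs from 29214562 to 29219667 on 3R. Relative to its start, the IDR summits lay at −106 bp (rank 729), at 774 bp (rank 195) and at 1041 bp (rank 793). The mir-279 hairpin begins at 1023 bp and the mir-996 hairpin at 2622 bp. The third IDR summit lies on the mir-279 hairpin, whereas the third summit of each replicate lay before it.

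Each replicate also had 3 separate summits over this stretch. The upstream summit was at −114, −92 and −97 bp in replicates 1, 2 and 3, with percentiles of 97.8, 97.3 and 96.5. The middle summit was at 762, 734 and 775 bp, with percentiles of 99.2, 99.4 and 99.4. The third was at 975, 936 and 974 bp, with percentiles of 98.3, 98.9 and 98.8. All 3 replicates thus had their strongest region of the transcript between its start and mir-279. Near the mir-996 hairpin the strongest region within 500 bp reached 22.3, 39.6 and 56.9. No Insv site was found within 250 bp of any of the 3 summits.

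**Figure D3:**
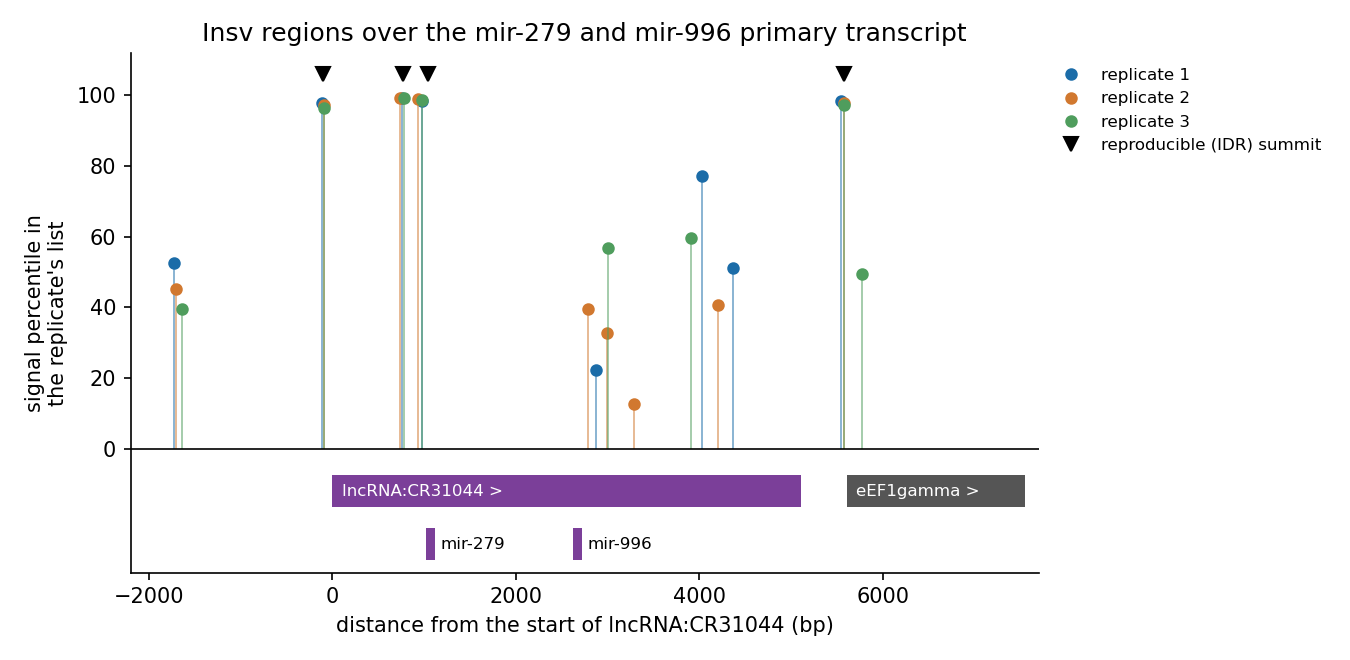
Points give the signal percentile (vertical axis) of each region listed in the 3 replicates against the distance of its summit from the start of lncRNA:CR31044 (horizontal axis, bp), black triangles mark IDR summits, and bars below show the genes. The regions at −114 to −92 bp and at 734 to 975 bp stand between 96.5 and 99.4 in all replicates, and the fourth triangle is the promoter peak of eEF1gamma.

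Other lncRNA genes that contain a miRNA hairpin on their strand were also bound at their starts. Of 34 such genes, 7 had a member peak (20.6%, 10.3 to 36.8%), against 58 of 1910 other lncRNA genes (3.04%). A further 46 of the other genes, and 0 of those with a hairpin, had only peaks also at a protein-coding start, which the rule leaves out. The 3 replicates gave 20.6%, 17.6% and 26.5% for genes with a hairpin, with a mean of 21.6% ± 4.49, and 2.71% ± 0.0800 for the others (SD, n = 3). This comparison was chosen after the values were seen and has no test. Genes with a hairpin were longer, with a median of 6116.5 bp against 654 bp, and 13 of 34 (38.2%) had more than 1 annotated start, against 81 of 1910 (4.24%). The part of length and of the number of starts in the difference was not tested.

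Besides lncRNA:CR31044, the bound precursors were those of mir-282, mir-14, mir-bft, mir-8, mir-iab-8 and mir-4951. The precursor of mir-14, lncRNA:CR43651, which gives a regulator of cell death and metabolism, had its summit 2 bp after its start (rank 1972) and percentiles of 93.1, 92.5 and 93.9. That of mir-282, lncRNA:CR43626, ranked 1436 with percentiles of 96.2, 94.5 and 93.2. The precursor of mir-bft (mir-263a), lncRNA:CR43314, which gives a miRNA that protects sense organs from cell death, had summits 30 bp before and 169 bp after its start (ranks 3204 and 2290), and percentiles of 89.1, 92.7 and 94.0 near the start. The weakest was the precursor of mir-8, a regulator of growth and Wnt signalling, at rank 4254 with percentiles of 92.4, 72.7 and 88.6. Hsromega, a stress-induced nuclear RNA that contains mir-4951, had 2 summits, 103 bp after one annotated start (rank 2572) and 184 bp before another (rank 4487).

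Peaks at miRNA genes themselves were few, and other than mir-279 they lay at miRNAs inside introns. A peak at mir-9374, in an intron of the nuclear receptor gene Hr39, had summits 257 and 40 bp before the hairpin (ranks 339 and 1602), and the stronger had a degenerate Insv site 28 bp away, shown above. The region over both had percentiles of 98.6, 98.9 and 98.7. The remaining 3 were mir-4962 in the kinase gene Tlk (rank 1564), mir-9377 in Tis11, which encodes an mRNA decay factor (rank 2836), and mir-9378 in CG17124 (rank 3185). All 7 peaks of this class were among the strongest regions of all 3 replicates, as were 67.9% of all IDR peaks. The 7 lie in 5 regions, since mir-279 and mir-9374 have 2 each within 1 region.

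Lists of miRNAs known from neural, Notch or growth control had few or no peaks at their own starts, as did miRNA genes at large (5 of 260, 1.92%), and lists of this size cannot be told apart from that share. None of 16 miRNAs that pair with the K, Brd or GY boxes of E(spl) and Bearded mRNAs had one, and neither did any of 21 growth, muscle and metabolic miRNAs, any of 8 miRNAs of the cluster that clears maternal mRNAs, or the 4 genes of the let-7 complex. Of 11 neural and sense-organ miRNAs, only mir-279 did. The strongest region near mir-124 stood at 59.5, 57.1 and 74.2, and near mir-7 at 8.96, 33.6 and 31.0. Apart from the precursor lncRNA:let7C, these starts belong to hairpins, so promoters of longer precursors are not covered by this count. Among annotated lncRNA precursors of listed miRNAs, those of mir-279 and mir-996, mir-282, mir-14, mir-bft and mir-8 had a peak, as given above. Those of mir-9a, mir-124, mir-184, mir-ban and mir-1 were among those with none.

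Both of the strongest members lay in the bithorax complex, where noncoding transcripts run through the regulatory DNA of the Hox genes. The first was asRNA:PS4, an antisense transcript that begins in an intron of Ubx. Its summit, at 3R 16719796 and 331 bp before the start of the RNA, ranked 39, with percentiles of 99.8, 99.9 and 99.9. The degenerate Insv site shown above is centred 9 bp from the summit. The second was lncRNA:iab8 (rank 95), which represses abd-A and gives rise to mir-iab-8. Its summit, at 3R 16899493, was 339 bp downstream of an annotated start of the RNA, with percentiles of 99.9, 99.7 and 99.7. The Insv palindrome nearest to it lay at −238.5 bp on the plus strand, outside the 50 bp window used for counting. The other 6 noncoding genes listed for the Hox complexes, mir-10, mir-993, mir-iab-4, mir-iab-8, bxd and iab4, had no peak. The 2 of 8 genes with one stand beside 98 of 3448 noncoding genes (2.84%). This list is short and was chosen with earlier results of these data known, so the shares were not compared. At the hairpins of mir-iab-4 and mir-iab-8, which lie on opposite strands of the same DNA, the strongest regions reached 87.1, 81.6 and 66.5.

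The antisense RNAs lay within or beside genes of varied function. Besides asRNA:PS4, they were asRNA:CR43469, whose summits are nearest to bic, which encodes a subunit of the nascent polypeptide complex (rank 442), and to Balat (rank 693), asRNA:CR44429 in the juvenile hormone receptor gene gce (rank 1100), asRNA:CR45467 in the coat protein gene Sec24AB (rank 2390), asRNA:CR45396 in the protein disulfide isomerase gene Pdi (rank 2933), asRNA:CR45136 in CG30015 (rank 3365) and asRNA:CR46453 in CG12134 (rank 4712). The 2 summits of asRNA:CR43469 share 1 region, with percentiles of 98.2, 98.6 and 98.4. At asRNA:CR45396 the replicates differed, with 93.7, 83.1 and 97.4. Of the 8 summits, 7 lay upstream of the RNA's start.

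After iab8, the lncRNA with the strongest peak was lncRNA:CR46110 (rank 429), antisense within an intron of kay, which encodes fly Fos. It had an Elba site centred 3.5 bp from the summit, shown above, and percentiles of 98.3, 98.6 and 98.6. It was followed by lncRNA:CR31840 near hll (ranks 456 and 4006), lncRNA:CR44619 near CG4004 (ranks 463 and 1449), lncRNA:CR44760 near CG6044 (rank 515), and lncRNA:CR45039, whose neighbour is the Notch target E(spl)mbeta-HLH (rank 529, percentiles of 98.3, 97.9 and 98.1). The weaker summit at lncRNA:CR31840 had no listed region over it in replicate 1. Next came lncRNA:CR44339 near the Polycomb group gene Psc (rank 544), lncRNA:CR44125 near CG44438 (rank 692), lncRNA:CR43838 near CG15452 (rank 723) and lncRNA:CR31044.

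A few lncRNA peaks further down were picked out after their values were seen. They were lncRNA:CR46036, antisense in the chromatin remodelling gene osa (rank 769), lncRNA:CR45978 beside the Bearded family gene BobA (ranks 908 and 1824), and lncRNA:CR42657 beside nej, which encodes the fly CBP acetyltransferase (ranks 968 and 4709). The 2 summits at nej differed in their support. The stronger had percentiles of 96.9, 96.8 and 96.0, and the weaker, which shares a region with it in replicates 2 and 3, had 47.5 in replicate 1, the lowest value of any member there. The region over the weaker summit ranked 15759 of 30000 by signal in replicate 1. Among 70 lncRNA peaks, 15 had their start inside a protein-coding gene, 11 of them on its opposite strand. The hosts, from the strongest peak to the weakest, were kay, osa, beat-Ib (2 peaks), Rab32, ChAT, which makes acetylcholine, CG46429, the Wnt receptor gene fz2, the splicing factor gene mbl, the kinase gene Hipk, aqz, Mapmodulin, the glypican gene dlp, the NF-kappaB gene Dif and LpR2.

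The remaining classes gave single loci. The snoRNA Or-aca4, opposite to CG44403, had the third strongest member (rank 98, percentiles of 99.8, 99.6 and 99.6) and a degenerate Insv site. Or-CD4, snoRNA:185, Psi18S-301 and Psi18S-176 ranked between 1748 and 4348. Uhg4, whose introns give snoRNAs, had its summit 85 bp before its start (rank 688), with percentiles of 98.3, 97.5 and 96.6, and the starts of Or-aca5 and Psi28S-2949 lay within 500 bp as well. Among 13 well-known long noncoding RNAs, Uhg4 and Hsromega were bound, Uhg2 and Uhg8 had peaks that are also at protein-coding starts, and roX1, roX2, CRG, cherub, sphinx, yar, Uhg1, Uhg3 and Uhg5 had none. These 2 of 13 stand beside 98 of 3448 noncoding genes (2.84%), and the list is too short for a comparison with that share. At roX1 and roX2, which guide dosage compensation, the percentiles were 82.7, 76.6 and 72.6, and 71.3, 73.8 and 83.1.

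Small RNAs of other kinds had 2 peaks. In an exon of Crtc, a CREB coactivator gene, sncRNA:641 (rank 661, percentiles of 97.6, 97.9 and 97.9) had the only Insv palindrome within 50 bp of a member's summit. In an intron of dpn, a repressor gene of neural stem cells, sisRNA:4 (rank 1343) had percentiles of 85.1, 96.0 and 95.5, and sisRNA:CR46360 lay within 500 bp of the same summit.

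Across all classes, 59 summits lay upstream of the nearest noncoding start and 44 at or downstream of it. The median distance was 223 bp (range 2 to 498), with 22 summits within 100 bp and 60 within 250 bp. By comparison, the median was 93 bp for peaks at protein-coding starts. It was 238 bp for 386 low-ranked regions at noncoding starts, which come from the weaker part of the pooled list, off the IDR peaks. Members thus lay only slightly nearer to noncoding starts than these weak regions did, and the difference was not tested. The nearest protein-coding start was a median of 3200 bp away (502 to 40310), with 18 members under 1000 bp and 32 over 5000 bp from one. Of the summits, 71 lay between protein-coding genes, 28 in introns and 4 in exons. The noncoding start was inside a protein-coding gene for 32 members, in the same direction for 14 and opposite for 18. The arms 2L, 2R, 3L, 3R and X held 18, 28, 20, 26 and 11 members, and chromosome 4 held none.

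Members were less often beside a bound promoter than peaks far from every start. The nearest protein-coding gene had a promoter peak of its own for 33 of 103 members (32.0%) and for 841 of 1634 peaks over 500 bp from every start (51.5%). Of all protein-coding genes, 24.8% had one. The peaks over 500 bp from every start lay nearer to a protein-coding start, at a median of 2136 bp, against 3200 bp for members. In the strongest regions of each replicate the shares were 36.3% ± 3.97 and 50.7% ± 0.808 (SD, n = 3), and the difference, −14.4 percentage points ± 3.97, had the same sign in 3 of 3 replicates. No test was made of it, and the part of distance in it was not tested.

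Peaks off protein-coding promoters lay at noncoding starts more often than weak regions did. In the 4753 strongest regions of each replicate, 5.32%, 5.48% and 5.96% of those over 500 bp from protein-coding starts were at noncoding starts, with a mean of 5.59% ± 0.330. Low-ranked regions, from the weaker 50% of each list and off the IDR peaks, gave 2.80%, 3.10% and 2.95%, with a mean of 2.95% ± 0.148 (SD, n = 3). The difference was 2.64 percentage points ± 0.325, above the replicate spread and positive in 3 of 3 replicates. The exact sign-flip permutation test of this difference gave p = 0.25, two-sided, the smallest that 3 replicates allow. In the IDR list 103 of 1749 such peaks (5.89%) were at noncoding starts, against 386 of 11995 low-ranked regions of the pooled list (3.22%). The members included 10 at snRNA genes and the 386 low-ranked regions 3.

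The median strength of the members was within 1 percentile point of that of other peaks. The median percentile was 92.1, 92.7 and 93.1 in replicates 1, 2 and 3, a mean of 92.6 ± 0.494, against 92.4 ± 0.436 for peaks at protein-coding starts (SD, n = 3). The difference of 0.191 ± 0.929 points was smaller than the replicate spread (exact sign-flip permutation test, two-sided, p = 0.75), and its sign depended on the replicates used, from −0.216 without replicate 3 to 0.697 without replicate 1. Peaks over 500 bp from every start had 92.3 ± 0.426, a difference of 0.338 ± 0.0692 (positive in 3 of 3, exact test p = 0.25), which became −0.262 with distances of 250 bp. Among the strongest regions of all 3 replicates were 70 members (68.0%), against 67.9% of all IDR peaks. A further 18 were there in 2 replicates, 13 in 1 and 2 in none. Averaged over replicates, 83.8% ± 3.68 of members and 86.9% ± 3.23 of peaks at protein-coding starts were found, a difference of −3.08 ± 3.71 percentage points (exact test, p = 0.5).

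**Figure D4:**
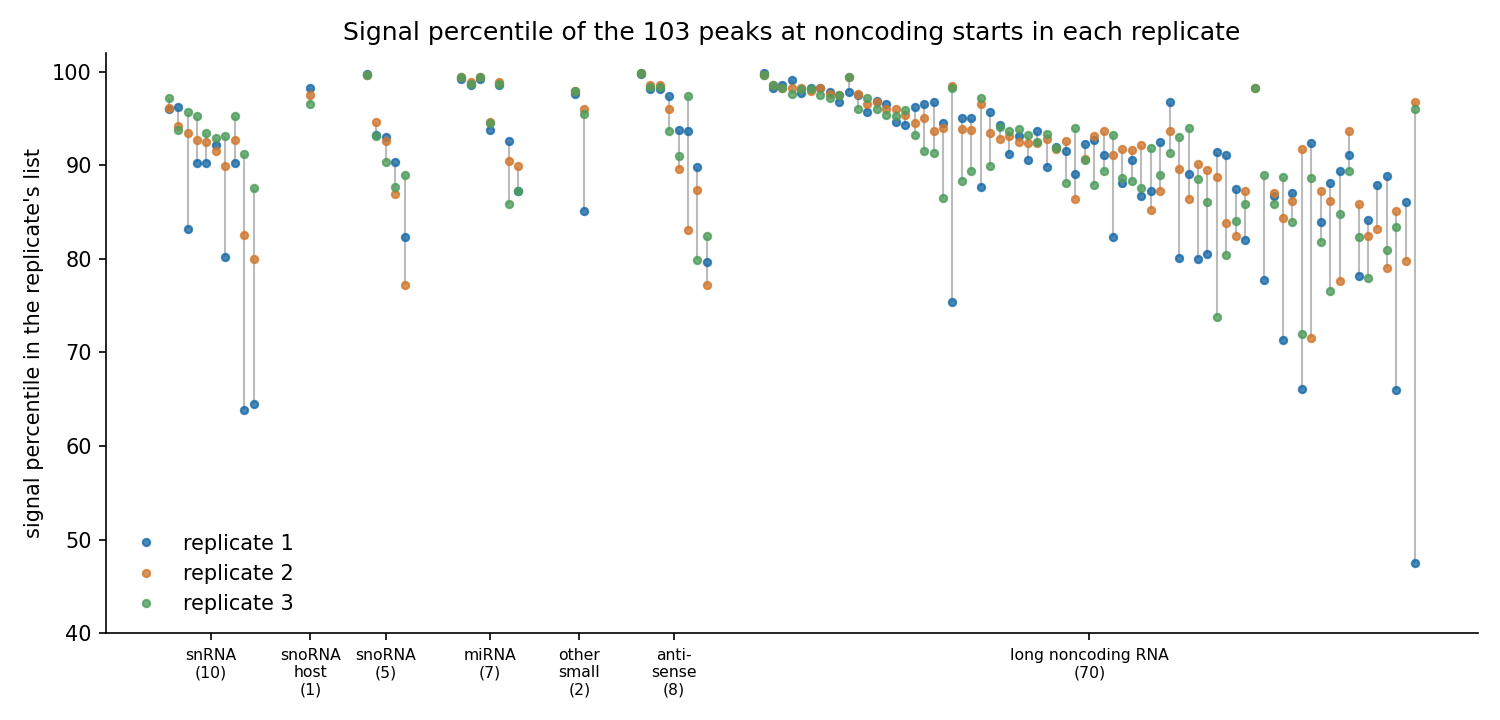
Each of the 103 members is a column, grouped by RNA class and ordered by rank within it, with its signal percentile in each replicate as a coloured point and a grey line from the lowest to the highest. The lowest value of the miRNA class is 85.9, while U1:21D and U4:39B fall to 63.8 and 64.5 and the weaker summit near nej to 47.5 in replicate 1.

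Insv sites were rare under the members. The palindrome or the degenerate site lay within 50 bp of 4 of 103 summits (3.88%, 1.52 to 9.56%), with 6.42% of all IDR peaks beside it. These 4 were at asRNA:PS4, Or-aca4, mir-9374 and sncRNA:641, ranked 39, 98, 339 and 661, so each was among the stronger members. The palindrome alone lay at 1 of 103 members (0.971%), against 3.06% of peaks at protein-coding starts and 4.41% of peaks over 500 bp from every start, and the replicates gave 1.01% ± 0.0990, 3.00% ± 0.161 and 4.59% ± 0.181 (SD, n = 3). For the palindrome or the degenerate site together, the shares were 155 of 3004 (5.16%) for peaks at protein-coding starts, 145 of 1634 (8.87%) for peaks over 500 bp from every start and 66 of 14491 (0.455%) for low-ranked regions. Across the replicates' strongest regions the mean share with either site was 4.73% ± 1.69 at noncoding starts and 5.07% ± 0.260 at protein-coding starts (SD, n = 3). That difference of −0.346 ± 1.81 percentage points was within the replicate spread (exact sign-flip permutation test, p = 0.75), and its sign turned to 0.402 without replicate 2. Peaks over 500 bp from every start had 8.96% ± 0.437, and the difference of −4.23 ± 2.04 percentage points was negative in 3 of 3 replicates (exact test, p = 0.25).

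Sequences of common promoter factors, which mark many protein-coding starts, were scarcer at the members than at those starts. The M1BP site GGTCACAC and the DREF site TATCGATA, both searched on both strands within 50 bp, lay at 0 of 103 summits each, with an upper limit of 3.60% by the Wilson interval. They lay at 4.26% and 4.66% of peaks at protein-coding starts. Peaks over 500 bp from every start also had few, at 0.184% and 0.428%, as did low-ranked regions, at 0.290% and 0.428%. The shorter BEAF-32 sequence CGATA, which the DREF site contains, lay at 8 of 103 summits (7.77%, 3.99 to 14.6%), against 711 of 3004 (23.7%) at protein-coding starts, 12.7% of peaks over 500 bp from every start and 12.6% of low-ranked regions. The replicates gave 8.87% ± 4.27 at noncoding starts and 23.8% ± 1.33 at protein-coding starts for BEAF-32 (SD, n = 3), a difference of −15.0 ± 5.34 percentage points with the same sign in 3 of 3. Peaks over 500 bp from every start had 11.7% ± 0.444. That difference, −2.79 ± 4.15 percentage points, was within the replicate spread, and members were higher in 1 of 3 replicates. For M1BP they gave 0% ± 0 and 4.11% ± 0.359, and for DREF 0.601% ± 1.04 and 4.55% ± 0.226.

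The GAGA factor sequence GAGAG lay at 17 of 103 members (16.5%, 10.6 to 24.9%), 13.5% of peaks at protein-coding starts and 13.2% of low-ranked regions. In the replicates it was at 19.0% ± 2.31 of summits at noncoding starts and 13.9% ± 1.39 at protein-coding starts (SD, n = 3), higher in 3 of 3. Peaks over 500 bp from every start were closer to the members, at 15.9% in the IDR list and 16.0% ± 0.628 in the replicates. The median GC content of the 101 bases around the summit was 40.6% for members and 40.6% for peaks at protein-coding starts. None of these sequence shares has a test beyond the Insv site, and a match is a description of letters, not of a bound factor.

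**Figure D5:**
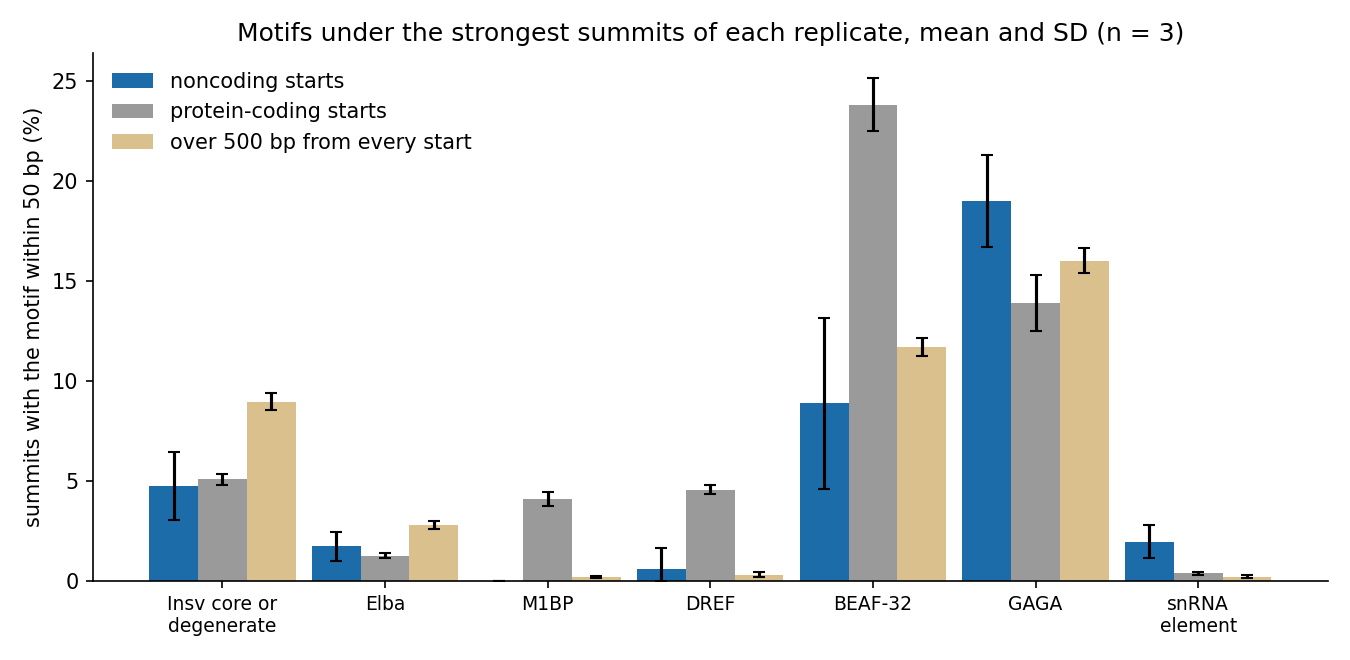
Bars give the mean percentage of summits with each motif within 50 bp, and lines the SD over 3 replicates, for each replicate's strongest regions at noncoding starts (blue), at protein-coding starts (grey) and over 500 bp from every start (tan). Lines stop at 0, and M1BP and DREF stand at 0% and 0.601% at noncoding starts, beside 4.11% and 4.55% at protein-coding starts.

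Some members stood close to the limits of the rule. Just inside the limit to noncoding starts were lncRNA:CR44619 at 498 bp and lncRNA:CR43289 at 494 bp, and just outside were peaks 517 bp from lncRNA:CR45359 and 525 bp from lncRNA:CR45582. On the protein-coding side, peaks at lncRNA:CR44365 and asRNA:CR44429 were kept at 502 and 506 bp, while those at lncRNA:CR30055 and asRNA:CR46105 were left out at 476 and 466 bp. In all, 119 IDR peaks lay within 500 bp of both a noncoding and a protein-coding start and are not described here.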

How the data were processed

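Per the file headers, the authors made a list of peaks and background on dm6 for each replicate and for the replicates together, and an optimal list of those that passed IDR. A replicate's list derives from its alignment and a second file whose role is not named. The authors' signal score has no stated scale and was used only as a rank or percentile within a list. The deposited significance column holds −log10 q-values; regions below a q-value of 0.05 were counted from it. Summits were placed by adding the deposited offset, one of the other values of a peak, to its first base. For the aligner, peak caller, read numbers and IDR threshold: not given in the sources used here. The lists on dm3 were not used here.

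Starts came from all transcripts of Ensembl release 115 (BDGP 6.54), and sequences from the RefSeq genome of the same build, on the major arms; positions count from 1. RNA classes follow the gene biotype, with ncRNA genes split by symbol. Mature miRNAs entered as genes were joined to their hairpin. The percentile of a member is that of the strongest region over its summit, and that of a gene is the strongest with a summit within 500 bp of a start. Members, lists and motifs were chosen with earlier results of these data known. Named genes are those of every class with at most 12 bound genes, the 10 strongest lncRNAs, members with an Insv site, list genes and the members nearest to the limits of the rule; other lncRNAs and hosts, and precursors of miRNAs, were named after their values were seen. Differences were taken within each replicate and tested by exact sign-flip permutation. The alternatives were other distances, starts, summit groups, lists, windows and leaving out each replicate. Classification and motif search were tested on simulated data. The tools were Python 3.11.15 with pandas 2.3.3, numpy 2.4.6 and scipy 1.17.1, and figures were drawn with matplotlib 3.10.9. The p-values measure only the spread between these 3 replicates.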

Additional observations from a re-analysis of the deposited data

How the results depend on the processing

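The number of members was 75 with distances of 250 bp, 134 with 1000 bp, 117 with gene starts only, 89 with 1 summit per group of overlapping peaks, 103 without pseudogenes, and 56 in the stronger 50% of the IDR list, which by construction holds fewer peaks; it was 73 to 81 when members also had to be among the strongest regions of both remaining replicates. The excess of noncoding starts among peaks off protein-coding promoters stayed positive in all 8 alternatives, from 1.68 to 4.56 percentage points. The difference in median percentile from peaks at protein-coding starts (0.191) became −0.0111 with distances of 1000 bp and −0.197 in the stronger 50%, and ran from −0.216 to 0.697 on leaving out a replicate. That from peaks over 500 bp from every start (0.338) became −0.262 with 250 bp and −0.505 in the stronger 50%. The difference in Insv sites from peaks at protein-coding starts (−0.346) became 0.0456 with 1 summit per group and 0.0209 with a motif window of 100 bp, and ran from −1.35 to 0.402 on leaving out a replicate. For these changes of sign the cause was not tested. The differences in Insv sites from peaks over 500 bp from every start (−5.36 to −2.70) and in the share found among the strongest regions (−5.39 to −1.26) kept their sign in all alternatives run. Leaving out a replicate does not rebuild the IDR list, which draws on all 3. The comparisons are within each replicate, and no pairing of samples across groups exists because there is a single group. The unknown depth limits what the absence of a peak can show.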
